A study of Mus musculus with 16 samples.

Results

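The response of Arglu1-deficient mouse liver to a high-fat diet was measured by comparing 4 libraries from knockout mice on the high-fat diet with 4 from knockout mice kept on chow, 8 of the 16 libraries sequenced. The libraries were chosen by their labels (genotype LKO, liver) and every gene tested was described. LKO mice lacked Arglu1 in hepatocytes, and all mice were females aged to 9 months on chow. They then either changed to the high-fat diet TD. 88137 (HFD) or stayed on chow for 12 weeks. The other 8 libraries, 4 per diet, came from wild-type (WT) females of the same age and feeding, and serve here to check the Arglu1 labels, to ask where the LKO response differed and, in the shared fit, to estimate the spread. The 2 LKO groups fitted alone gave 188 calls in place of the 320 reported below. Neither the Cre driver nor the deleted exons are named in the labels. Whether the 4 libraries of a group came from 4 different mice is not stated either, so the p-values measure only how far these libraries spread, and part of that spread may be technical.

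Liver makes cholesterol through the mevalonate pathway, whose genes are switched on by the transcription factor SREBP2 when sterol in the endoplasmic reticulum is low. Sterol that accumulates is converted to bile acids or exported into bile by the transporter pair ABCG5 and ABCG8, whose genes are targets of the oxysterol receptor LXR. ARGLU1, named for its arginine- and glutamate-rich parts, is a nuclear protein with known roles in splicing and in transcription by nuclear receptors.

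Arglu1 itself, given first as a check of the genotype labels, stood at 15.99, 15.88, 13.99 and 12.77 CPM (counts scaled to a common library size) in LKO chow replicates 1 to 4, and at 13.4, 15.4, 16.5 and 16.7 CPM in LKO HFD replicates 1 to 4. All 8 values lay below the WT libraries, where Arglu1 ran from 39.5 to 45.1 CPM, and the diet difference within LKO was 0.08 ± 0.09 (log2 ± SE, adjusted p = 0.696). Total counts ran from 19142612 to 25120565 on chow and from 19158827 to 24667513 on HFD, and none of 5 library measures differed in an exact permutation test (2-sided, lowest p = 0.0571 for the share of counts in the top 10 genes, smallest possible p 0.0286). Hepatocyte identity genes, led by albumin, summed to 128600 to 144300 CPM in the LKO chow libraries and to 99900 to 116700 CPM in the LKO HFD libraries. Albumin itself was not called (log2 -0.40, adjusted p = 0.0738 in the edgeR test described below).

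The LKO libraries were not uniform within the chow group. The first principal component of the 8 LKO libraries (34.6% of the variance) set LKO chow replicates 3 and 4 (43.7 and 40.4) apart from the other 6 libraries (-18.0 to -6.23), and so did not follow diet. The second component (20.2%) separated the diets, at -3.27 to 34.1 on chow and -20.7 to -9.44 on HFD. Mitochondrial genes took 5.66%, 4.93%, 7.7% and 8.61% of counts in LKO chow replicates 1 to 4, and 5.16% to 6.11% on HFD. The summed CPM of 16 Kupffer cell markers was 988.1 and 896.3 in LKO chow replicates 1 and 2 against 299.3 and 542.8 in replicates 3 and 4, and 738.6 to 1160 on HFD. The 19 endothelial markers summed to 929.0 and 784.6 in chow replicates 1 and 2 against 412.8 and 381.4 in replicates 3 and 4, and to 441.1 to 646.5 on HFD. In bulk liver, fewer cells of a type and less RNA per cell cannot be told apart. LKO HFD replicate 2 held 17810 counts over 16 skeletal muscle genes (Acta1 at 3777) against 491 to 637 in the other 7 LKO libraries. The part of these differences in the results was not tested, and for calls lost without chow replicates 3 and 4 together the adjusted p without them is given.

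Of 14434 genes tested with edgeR's quasi-likelihood test, 320 (2.22%) passed a Benjamini-Hochberg adjusted p below 0.05 in LKO, and these are the genes called here. On HFD 165 genes rose (1.14%) and 155 fell (1.07%), whereas upper-quartile scaling gave 141 higher and 186 lower. At least 2-fold changes were made up of 37 rises (0.256%) and 53 falls (0.367%). The 4 HFD and 4 chow libraries did not overlap for 1472 genes (10.2%; 5.42% higher and 4.77% lower on HFD), 302 of which were called. The 15 largest rises and 15 largest falls named below were picked among called genes without overlap. For these genes the lack of overlap is therefore no added support. The number called moved strongly with single libraries, to 656 without LKO chow replicate 2, 117 without chow replicate 3, 111, 118 and 127 without HFD replicates 1, 2 and 4, 2768 without chow replicates 1 and 2 together, and 179 without chow replicates 3 and 4 together. Of 71 called genes singled out by size, p or list membership, 38 kept their call whichever single library was left out, 36 lost it without chow replicates 3 and 4 together, 6 lost it without chow replicates 1 and 2 together, and none changed direction in any setting. Those pairs were left out after the data had been seen.

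**Figure D1:**
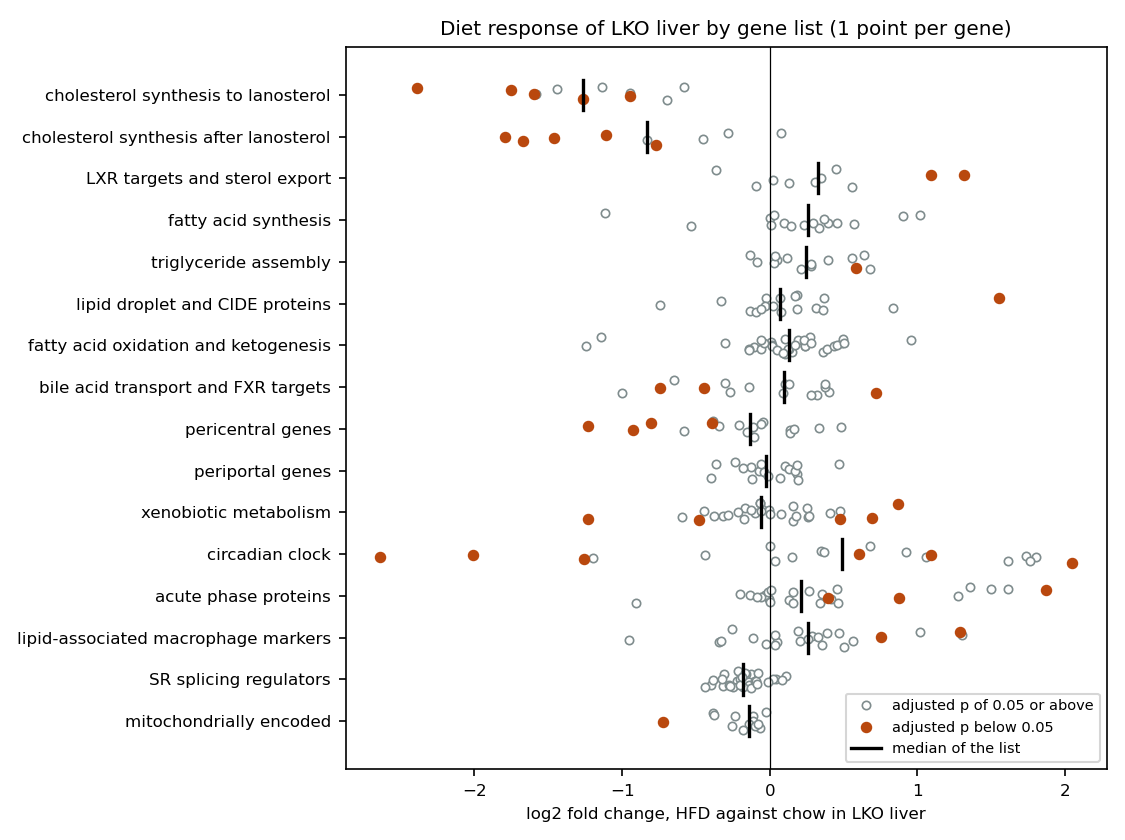
Log2 fold change of HFD against chow in LKO liver (x axis) for the tested members of 16 gene lists (y axis), 1 point per gene, filled where the edgeR adjusted p was below 0.05, with a bar at each list's median. The filled points of both cholesterol synthesis lists lie on the lower side, with list medians of -1.27 and -0.83, whereas fatty acid synthesis and oxidation have no filled point.

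Of 20 cholesterol synthesis genes 10 fell on HFD and none rose, where 1.07% of all genes tested fell and 1.14% rose. Of the 11 genes that lead from acetyl-CoA to lanosterol, 5 fell and none rose, all 11 fold changes were negative, and the median was -1.27 (log2) against -0.000757 over all genes tested. Of the 9 genes that convert lanosterol to cholesterol, 5 fell, 8 were negative and the median was -0.83. The fall was not particular to LKO liver. In WT liver 7 of the 11 and 5 of the 9 fell, with medians of -1.52 and -1.23, and 0 members of either list passed the interaction test. WT HFD replicate 2 stood apart, with a summed 1320 CPM for the first list against 485.3 to 614 CPM in the other WT HFD libraries. In LKO HFD libraries most of these genes were highest in replicate 3.

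Hmgcs1, the synthase that makes HMG-CoA, stood at 353.6, 305.7, 597.8 and 532.8 CPM in chow replicates 1 to 4 and at 104.5, 117.7, 202.4 and 107.7 CPM in HFD replicates 1 to 4. The HFD libraries all lay below the chow libraries, with replicate 3 nearest to them, and the fall was 3.36-fold (log2 -1.75 ± 0.27, adjusted p = 0.00373). Sqle, squalene epoxidase, had the largest fall of the pathway, from 94.2, 86.6, 120.2 and 96.4 CPM to 14.7, 15.5, 31.1 and 14.7 CPM. This was 5.23-fold (log2 -2.39 ± 0.44, adjusted p = 0.0127), again with HFD replicate 3 highest and no overlap. Idi1, isopentenyl-diphosphate isomerase, fell from between 181.2 and 221.3 CPM to between 52.4 and 94.0 CPM (log2 -1.59 ± 0.23, adjusted p = 0.00226). Fdft1, squalene synthase, fell by 1.27 ± 0.18 (log2, adjusted p = 0.0018), and Mvk, mevalonate kinase, by 0.95 ± 0.21 (adjusted p = 0.0267). Among the 6 uncalled members, Mvd, Fdps and Pmvk had log2 fold changes of -1.59, -1.44 and -1.14 with adjusted p of 0.138, 0.145 and 0.112. Those 3 genes were measured with standard errors of 0.53, 0.49 and 0.35.

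After lanosterol, Cyp51, the lanosterol demethylase, fell from 140.5, 144.9, 191.1 and 175.8 CPM to 40.3, 38.2, 71.0 and 38.2 CPM (3.47-fold, log2 -1.80 ± 0.28, adjusted p = 0.00427). Msmo1, the sterol-C4-methyl oxidase, fell from between 121.1 and 199.8 CPM to between 44.9 and 70.4 CPM (log2 -1.46 ± 0.22, adjusted p = 0.00275). Tm7sf2, a sterol C14-reductase, fell by 1.11 ± 0.17 (log2, adjusted p = 0.00275), Nsdhl by 1.67 ± 0.40 (adjusted p = 0.0426) and Hsd17b7 by 0.77 ± 0.17 (adjusted p = 0.0235), all without overlap. The calls in the pathway were fewer with some libraries left out: without HFD replicate 1, 2 or 4 each list kept 3, without chow replicate 3 the second list kept 3, and without chow replicates 3 and 4 together the lists kept 3 and 2. Sqle, Mvk, Nsdhl and Hsd17b7 were the called members whose adjusted p passed 0.05 in some of these single-library settings, at up to 0.0567, 0.102, 0.142 and 0.0855. Without chow replicates 3 and 4 together the adjusted p was 0.0902 for Sqle, 0.269 for Mvk, 0.338 for Nsdhl, 0.0939 for Hsd17b7 and 0.0538 for Cyp51.

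RefSeq promoter windows (GRCm38.p6, 250 bases before each start) were searched on both strands for a sterol regulatory element spelled TCACNCCAC, the site that SREBP proteins bind, for the E-box CACGTG, which SREBP and clock proteins can bind, and for the ROR element TAGGTCA. Windows were found for 8 of the 10 called cholesterol genes. The sterol element was in 1 of these, Hmgcs1, and in 1.05% of 32851 promoters, and the E-box was in 1, Hsd17b7, and in 6.02% of promoters. Of 7 uncalled cholesterol genes with a window none held the sterol element and 2, Sc5d and Dhcr7, held the E-box. The ROR element was in none of the 8 called genes, in 1 uncalled gene, Dhcr7, and in 2.23% of promoters, and in none of the 6 called clock genes. Of 3 clock genes that fell (described below) Cry1 held an E-box, and none of the 3 that rose did. Abcg5, Abcg8, Srebf1 and Srebf2 held none of the elements searched. The stretches around the matches are shown for Hmgcs1, Hsd17b7 and Cry1, because these 3 genes fell in LKO liver and their windows hold the letters searched. They read in the direction of the gene, with the match in capitals, and lie at chr13:119690184-119690252 on the plus strand (Hmgcs1), chr1:169969313-169969378 on the minus strand (Hsd17b7) and chr10:85185079-85185144 on the minus strand (Cry1).
Hmgcs1: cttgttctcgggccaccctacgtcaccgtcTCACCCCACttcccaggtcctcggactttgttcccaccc
Hsd17b7: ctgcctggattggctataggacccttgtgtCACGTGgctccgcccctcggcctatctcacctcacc
Cry1: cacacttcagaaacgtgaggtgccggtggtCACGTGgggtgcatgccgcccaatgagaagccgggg
A match is a stretch of letters and does not show binding, and no match says only that these letters are not in the window. For Hmgcs1 the sequence from the window's start site was not found at the start of a GENCODE transcript of the gene. For Hsd17b7 and Cry1 it was found.

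The genes of the 2 SREBP factors moved in opposite directions. Srebf2, which encodes SREBP2, fell from 90.9, 101.3, 91.5 and 77.6 CPM to 66.2, 58.8, 64.1 and 58.5 CPM (log2 -0.55 ± 0.10, adjusted p = 0.0105), with every HFD library below every chow library. Srebf1, whose product controls lipogenic genes, rose from 549.0, 321.7, 392.3 and 533.8 CPM to 1017, 849.3, 864.0 and 882.8 CPM (log2 1.01 ± 0.24, adjusted p = 0.0397). The groups did not overlap, but the call of Srebf1 was lost in 10 of 16 single-library settings (adjusted p up to 0.135, without LKO chow replicate 3) and without chow replicates 3 and 4 together (0.187). Of the other 10 tested members of the SREBP and sterol uptake list none was called; Scap, the SREBP escort protein, had a log2 fold change of -0.39 (adjusted p = 0.105).

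Abcg5 and Abcg8, which export sterol into bile, rose. Abcg5 went from 96.5, 71.7, 87.5 and 145.5 CPM on chow to 274.4, 254.4, 226.0 and 244.8 CPM on HFD (2.49-fold, log2 1.32 ± 0.17, adjusted p = 0.00114), and Abcg8, its partner, from 98.5, 77.5, 79.6 and 121.9 CPM to 210.0, 227.5, 175.2 and 190.4 CPM (2.13-fold, log2 1.09 ± 0.15, adjusted p = 0.0018). The chow libraries of both genes were highest in replicate 4, and neither gene overlapped between diets. They were the 2 called members of 10 LXR targets and sterol export genes, whose median was 0.33. Over all genes tested 1.14% rose. Abca1 and Abcg1, which export cholesterol to lipoproteins, had values of 0.45 (adjusted p = 0.128) and 0.55 (adjusted p = 0.196). In WT liver Abcg5 and Abcg8 rose by 2.09 and 1.87 (log2). The LKO response was smaller by 0.77 ± 0.24 and 0.78 ± 0.21, with interaction p of 0.00502 and 0.00191 that did not pass adjustment (0.402 and 0.395).

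**Figure D2:**
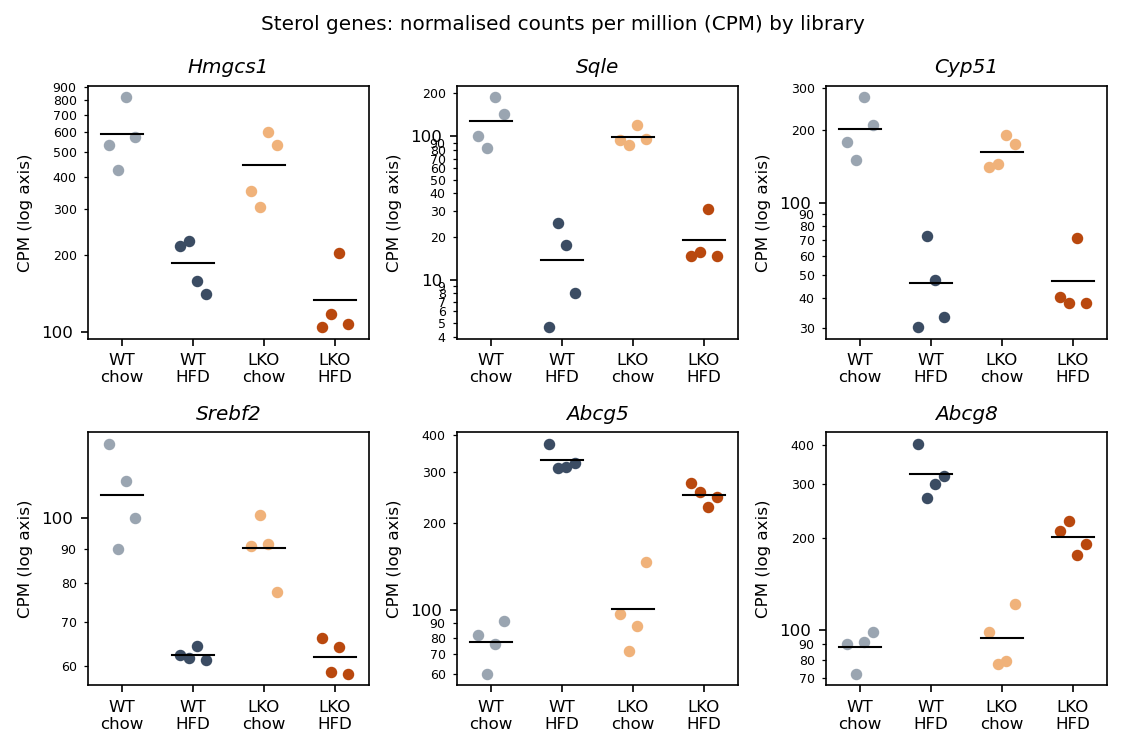
CPM on a log axis of 6 sterol genes in each library of the 4 groups, with a bar at the group mean. In LKO liver Hmgcs1, Sqle, Cyp51 and Srebf2 sit lower on HFD than on chow, and Abcg5 and Abcg8 sit higher, with HFD replicate 3 the highest HFD library for Hmgcs1, Sqle and Cyp51.

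Few genes of fatty acid and triglyceride metabolism passed the test. Cidec, which encodes a lipid droplet protein that enlarges droplets, rose from 5.02, 26.8, 19.9 and 20.6 CPM to 36.8, 42.6, 69.4 and 63.4 CPM (2.93-fold, log2 1.55 ± 0.35, adjusted p = 0.0357). Chow replicate 1 was the lowest of the 8, and the groups did not overlap. Gpat4, a glycerol-3-phosphate acyltransferase at the start of triglyceride assembly, rose by 0.58 ± 0.14 (log2, adjusted p = 0.0342), with HFD replicate 3 (161.1 CPM) just under chow replicate 2 (164.5 CPM). Acot11, an acyl-CoA thioesterase, rose from between 11.9 and 17.9 CPM to between 28.6 and 44.7 CPM (log2 1.39 ± 0.24, adjusted p = 0.00735). Calls of Cidec and Gpat4 were lost in 7 and 5 of 16 single-library settings, at adjusted p up to 0.103 and 0.123, both without chow replicate 3. Leaving out chow replicates 3 and 4 together gave 0.157 for Cidec, 0.269 for Gpat4 and 0.109 for Acot11.

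None of 16 fatty acid synthesis genes was called, although 14 were positive and the list median was 0.26. Scd1, the stearoyl-CoA desaturase, stood at 17168, 6251, 9796 and 7640 CPM on chow and at 15336, 18868, 25177 and 23320 CPM on HFD (log2 1.02 ± 0.42, adjusted p = 0.222). Chow replicate 1 lay above HFD replicate 1, so the groups overlapped. Acss2, which makes acetyl-CoA from acetate, had the lowest value of the list (-1.12 ± 0.59, adjusted p = 0.349). None of 34 oxidation and ketogenesis genes was called either (median 0.13). The fatty acid transporter gene Cd36 had the lowest p of these, at 209.5, 245.9, 184.4 and 156.8 CPM on chow and 273.8, 305.5, 277.3 and 272.0 CPM on HFD (log2 0.50 ± 0.13, adjusted p = 0.0608). The absence of oxidation and ketogenesis calls depended on the setting. Without chow replicate 2 there were 5 members called higher, and without chow replicates 1 and 2 together 6. With DESeq2 in place of edgeR 4 were called higher and 1 lower, and with limma voom 6 higher. Without chow replicates 3 and 4 together none was called. Neither the 24 glucose metabolism genes nor the 23 genes of lipoprotein assembly and clearance held a called member, and Apoa1, the main protein of high-density lipoprotein, came nearest at -0.90 ± 0.23 (adjusted p = 0.055).

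Bile acid genes gave calls in both directions. Abcg2, a canalicular transporter, rose from 48.9, 51.2, 50.02 and 47.0 CPM to 86.4, 78.0, 74.3 and 85.0 CPM (1.64-fold, log2 0.72 ± 0.09, adjusted p = 0.000954). The chow libraries spanned about 4 CPM and the HFD libraries lay far above them. Abcb11, the bile salt export pump, fell from between 638.1 and 865.3 CPM to between 529.6 and 590.5 CPM (log2 -0.45 ± 0.10, adjusted p = 0.0304). Slco1a4, a sinusoidal uptake transporter, fell by 0.74 ± 0.14 (log2, adjusted p = 0.00951), and Cyp27a1, the sterol 27-hydroxylase of the alternative bile acid pathway, by 0.39 ± 0.08 (adjusted p = 0.0109). These were the 3 called of 16 transport genes and the 1 called of 16 synthesis genes, with list medians of 0.10 and 0.09. Over all genes tested 2.22% were called. The call of Abcb11 was lost in 6 of 16 single-library settings, at adjusted p up to 0.113 (without chow replicate 3). With chow replicates 3 and 4 both left out the adjusted p was 0.114 for Abcb11, 0.114 for Slco1a4 and 0.07 for Cyp27a1.

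Of 18 pericentral genes, those of hepatocytes around the central vein, 4 fell and none rose, with a median of -0.13. Over all genes tested 1.07% fell. The summed CPM of the pericentral genes overlapped between diets, at 8878 to 12800 on chow and 9017 to 11600 on HFD. None of 18 periportal genes was called (median -0.03). Cyp1a2, a drug-metabolising cytochrome, fell from 432.7, 290.7, 634.7 and 562.0 CPM to 259.2, 226.0, 166.5 and 164.9 CPM (2.35-fold, log2 -1.23 ± 0.24, adjusted p = 0.0152). Lgr5, the R-spondin receptor, fell from 7.004, 8.096, 11.07 and 10.35 CPM to 4.65, 5.33, 4.32 and 4.82 CPM (log2 -0.93 ± 0.18, adjusted p = 0.00988), and Notum, a secreted Wnt deacylase, fell by 0.81 ± 0.16 (adjusted p = 0.0147). Groups did not overlap for these 3 genes, and the fourth called member was Cyp27a1. For Cyp1a2, Lgr5 and Notum chow replicates 3 and 4 were the 2 highest libraries, and none of the 4 calls held without them (adjusted p 0.183, 0.129, 0.129 and, for Cyp27a1, 0.07). Cyp1a2 and Notum also lost their call without chow replicate 3 alone (0.0607 and 0.0564) or HFD replicate 4 alone (0.0572 and 0.0541).

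Among 30 xenobiotic metabolism genes 3 rose and 2 fell, against 1.14% and 1.07% of all genes tested. Por, the reductase that supplies electrons to cytochromes P450, rose from 194.8, 252.9, 277.7 and 219.7 CPM to 499.4, 428.0, 339.8 and 461.3 CPM (log2 0.87 ± 0.17, adjusted p = 0.00995). Cyp3a11 rose from between 504.4 and 722.3 CPM to between 900.4 and 1133 CPM (log2 0.69 ± 0.13, adjusted p = 0.00856), though reads may be shared with its close Cyp3a relatives. Aldh1a1, a retinaldehyde dehydrogenase, rose by 0.48 ± 0.10 (adjusted p = 0.0236), and Ahr, the aryl hydrocarbon receptor, fell by 0.48 ± 0.11 (adjusted p = 0.0255). These last 2 calls were lost in 6 and 4 of 16 single-library settings, at adjusted p up to 0.0717 and 0.0899. Foxa3, a hepatocyte transcription factor, was the 1 called of 19 hepatocyte identity genes and fell from between 46.3 and 73.9 CPM to between 23.5 and 35.8 CPM (log2 -0.97 ± 0.18, adjusted p = 0.0102). Of the 19 genes 14 were negative (median -0.07). Without overlap 6 were lower on HFD and 0 higher, against 4.77% lower and 5.42% higher over all genes tested. The calls of Foxa3 and Aldh1a1 were lost without chow replicates 3 and 4 together (adjusted p 0.0694 and 0.12).

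Clock genes moved in both directions, 3 higher and 3 lower of 20, against 1.14% and 1.07% of all genes tested. Arntl, which encodes BMAL1, fell from 31.7, 29.3, 16.3 and 10.9 CPM to 3.68, 5.49, 8.56 and 4.08 CPM (4.03-fold, log2 -2.01 ± 0.38, adjusted p = 0.0138). Npas2, a partner of BMAL1, fell from 15.7, 15.8, 7.74 and 4.62 CPM to 0.82, 1.71, 3.29 and 1.15 CPM (6.23-fold, log2 -2.64 ± 0.57, adjusted p = 0.0288), the largest called fall in the counts table. Cry1, a repressor of the BMAL1 complex, fell by 1.26 ± 0.27 (log2, adjusted p = 0.0235). For these 3 genes chow replicates 1 and 2 lay above chow replicates 3 and 4, which were nearer to the HFD libraries.

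On the rising side, Usp2, a clock-regulated ubiquitin protease gene, went from 3.08, 2.85, 4.51 and 3.57 CPM to 21.1, 16.9, 6.38 and 13.7 CPM (4.14-fold, log2 2.05 ± 0.45, adjusted p = 0.0296), with HFD replicate 3 lowest. Nr1d2, encoding the repressor REV-ERBβ, rose from 62.5, 34.0, 62.7 and 69.4 CPM to 147.4, 136.1, 86.6 and 115.8 CPM (log2 1.09 ± 0.20, adjusted p = 0.00988), and Cry2 rose by 0.61 ± 0.14 (adjusted p = 0.0336), with HFD replicate 3 just under chow replicate 1. Dbp, a clock output factor, was not called (log2 1.80 ± 0.84, adjusted p = 0.288); it stood at 6.70, 1.43, 49.0 and 66.9 CPM on chow and at 154.0, 127.2, 52.4 and 97.1 CPM on HFD. Chow replicates 1 and 2 were thus the lowest libraries of Dbp, and HFD replicate 3 lay within the range of chow replicates 3 and 4. The labels give no time of day of collection, and its part in these differences was not tested. Without chow replicates 1 and 2 the changes of Npas2 and Cry1 were -1.81 and -0.57 (adjusted p = 0.0644 and 0.0883), and Usp2 was at 1.84 (0.0647). Without HFD replicate 1, 2 or 4 no clock gene was called lower, with adjusted p up to 0.0609 for Arntl, 0.101 for Npas2 and 0.0851 for Cry1. Usp2 and Cry2 were likewise uncalled in 6 single-library settings each (adjusted p up to 0.095 and 0.13), and without chow replicates 3 and 4 together (0.145 and 0.188).

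**Figure D3:**
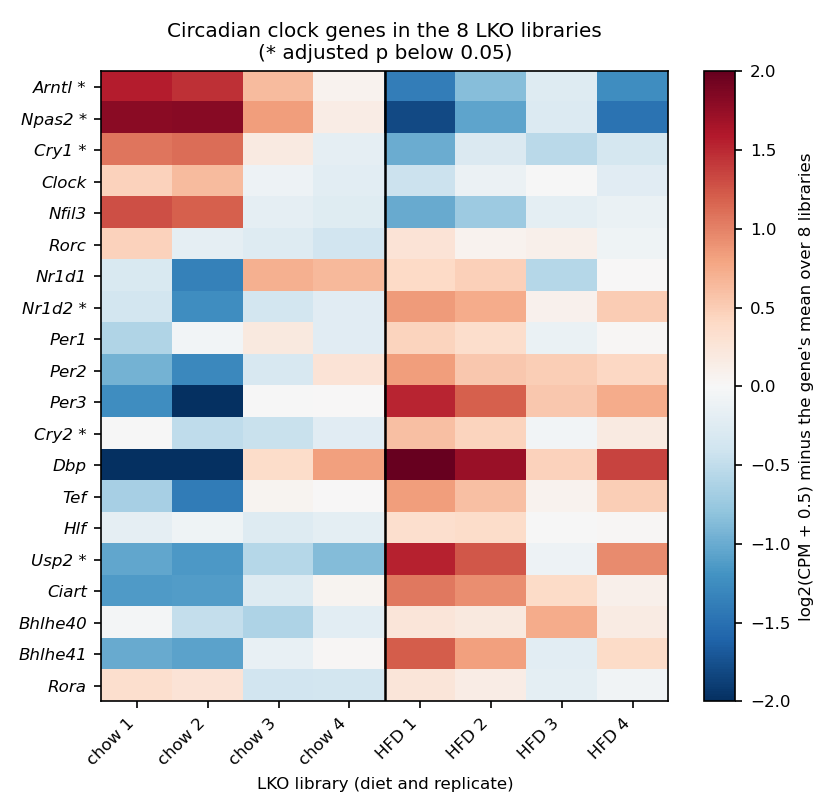
Log2(CPM + 0.5) of 20 clock genes (rows) in the 8 LKO libraries (columns), each minus the gene's mean over the 8, with red above and blue below that mean and colours capped at 2. Arntl, Npas2 and Cry1 are highest in chow replicates 1 and 2 and lower on HFD, and Dbp, Per3 and Usp2 are lowest in chow replicates 1 and 2.

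Of 26 acute phase genes 3 rose and none fell (median 0.21), where 1.14% of all genes tested rose. Orm2, an orosomucoid, rose from 5.68, 4.55, 8.15 and 11.1 CPM to 16.9, 24.3, 41.9 and 23.99 CPM (3.66-fold, log2 1.87 ± 0.32, adjusted p = 0.00735), with HFD replicate 3 highest and no overlap. Il1rn, the interleukin-1 receptor antagonist, rose by 0.88 ± 0.20 (adjusted p = 0.0288) and the complement gene C4b by 0.40 ± 0.09 (adjusted p = 0.0361). Saa1 and Saa2, serum amyloid genes of near-identical sequence whose counts may be split between them, had log2 fold changes of 1.499 and 1.61 (adjusted p = 0.0607 and 0.0572). The calls of Il1rn and C4b were lost in 5 and 8 of 16 single-library settings (adjusted p up to 0.105 and 0.137, both without chow replicate 3), and without chow replicates 3 and 4 together (0.225 and 0.287).

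Among markers of other cell types, 2 of 23 lipid-associated macrophage genes rose, where 1.14% of all genes tested rose. Gpnmb, a glycoprotein of lipid-loaded macrophages, went from 1.10, 1.70, 0.77 and 1.05 CPM to 2.30, 2.87, 2.68 and 3.55 CPM (log2 1.29 ± 0.32, adjusted p = 0.0388), and Lgals3, galectin-3, rose by 0.75 ± 0.19 (adjusted p = 0.0487). Their calls were lost in 8 and 13 of 16 single-library settings (adjusted p up to 0.136 and 0.122), and no member of the list was called without chow replicate 3 or 4 or any 1 HFD library. Without chow replicates 3 and 4 both, Gpnmb and Lgals3 had adjusted p of 0.257 and 0.25. Of the 23 genes 17 were positive and 6 negative, with a median of 0.26. Summed over the list, the level was 18450 to 23940 CPM on chow and 19140 to 21460 CPM on HFD, a sum set mostly by its most abundant members. The mean log2 CPM over the list, which weighs members equally, was 4.35 to 4.6 on chow and 4.57 to 5.01 on HFD. None of 16 Kupffer cell, 26 monocyte and inflammatory, 9 MHC class II, 17 T and NK cell, 16 B and plasma cell, 19 endothelial, 37 stellate cell and matrix, and 15 bile duct genes was called. Their medians ran from -0.16 for bile duct to 0.44 for monocyte and inflammatory genes, 24 of whose 26 members were positive.

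The change with the lowest p of all genes was that of Ntrk2, the receptor TrkB, which rose from 23.6, 21.7, 23.4 and 29.8 CPM to 66.2, 61.9, 84.4 and 64.6 CPM (2.81-fold, log2 1.49 ± 0.14, adjusted p = 5.78e-05). The lowest HFD library was more than 30 CPM above the highest chow library. The smallest changes among the genes of lowest p were those of Mcl1, an anti-apoptotic BCL2 relative, and Fmo5, a flavin monooxygenase. Mcl1 rose from 123.5, 120.2, 103.0 and 111.6 CPM to 175.4, 180.9, 169.7 and 172.6 CPM (log2 0.61 ± 0.08, adjusted p = 0.00105). Fmo5 rose from between 754.2 and 796.8 CPM to between 1170 and 1261 CPM (log2 0.66 ± 0.09, adjusted p = 0.00164).

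Falls of low p included Aldoc, aldolase C, from 17.58, 12.95, 23.46 and 20.49 CPM to 7.51, 5.37, 6.75 and 5.11 CPM (3.01-fold, log2 -1.59 ± 0.19, adjusted p = 0.000954). Osgin1, an oxidative stress response gene and the 1 called of 21 NRF2 targets (2.22% of all genes tested were called), fell from 393.8, 376.6, 424.9 and 345.5 CPM to 172.3, 186.5, 208.9 and 227.9 CPM (log2 -0.95 ± 0.12, adjusted p = 0.00105). Atoh8, a basic helix-loop-helix factor gene, fell by 1.27 ± 0.16 (log2, adjusted p = 0.00105), and Paxx, a DNA end-joining factor gene, by 1.27 ± 0.16 (adjusted p = 0.00105). The HFD and chow libraries did not overlap for any of these 4 genes. Paxx spans Clic3 (described below) on the opposite strand, so reads may be shared between them and their falls may not be separate. Requiring a change beyond 1.5-fold in the test itself left 2 calls, Ntrk2 and Aldoc.

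The largest rise was that of Sult1e1, an oestrogen sulfotransferase gene, from 1.10, 8.21, 0.32 and 0.58 CPM to 49.99, 43.73, 18.77 and 31.0 CPM (13.5-fold, log2 3.75 ± 0.77, adjusted p = 0.0245). Chow replicate 2 stood above the other chow libraries, and without it the log2 change was 5.72. The call was lost in 5 other single-library settings (adjusted p up to 0.0771, without HFD replicate 1) and without chow replicates 3 and 4 together (0.124). Smpd3, a neutral sphingomyelinase gene, rose from 12.4, 9.06, 13.6 and 13.9 CPM to 36.1, 28.1, 41.7 and 31.5 CPM (2.81-fold, log2 1.49 ± 0.21, adjusted p = 0.0018). Mup17, a major urinary protein gene, rose 4.09-fold (log2 2.03 ± 0.32, adjusted p = 0.00446); members of that family are near-identical, so its counts are uncertain. Themis, known for T cell selection, rose from between 0.57 and 1.28 CPM to between 2.83 and 5.15 CPM (log2 1.96 ± 0.31, adjusted p = 0.00275), and Cfap20dc, of unclear function, rose 4.77-fold (adjusted p = 0.00373). Ldb3, a muscle Z-disc gene, was at 1.94, 10.3, 2.39 and 2.35 CPM on HFD against 0.59 to 0.85 CPM on chow (log2 2.63, adjusted p = 0.0235). Its high value came from HFD replicate 2, the library with skeletal muscle counts, and without it the change was 1.69 (adjusted p = 0.0848). The call was also lost without chow replicate 3 or 4 (adjusted p up to 0.0855) or both (0.184).

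Among the largest falls, Clic3, an intracellular chloride channel gene that lies within Paxx, went from 3.48, 2.78, 4.69 and 2.68 CPM to 0.46, 0.52, 0.37 and 1.15 CPM (5.37-fold, log2 -2.43 ± 0.36, adjusted p = 0.00239). Ptgds, a prostaglandin D synthase gene, fell 5.30-fold (log2 -2.41 ± 0.38, adjusted p = 0.00275) and G6pc2, a glucose-6-phosphatase isoform gene, 4.49-fold (log2 -2.17 ± 0.38, adjusted p = 0.00565). Enho, which encodes the secreted peptide adropin, fell from 30.04, 29.38, 32.25 and 37.0 CPM to 10.7, 9.39, 8.19 and 9.03 CPM (3.45-fold, log2 -1.79 ± 0.32, adjusted p = 0.00927). Adgrf1, an adhesion G protein-coupled receptor gene, fell from 15.6, 8.44, 8.34 and 7.83 CPM to 3.07, 1.87, 2.72 and 3.09 CPM (log2 -1.90 ± 0.31, adjusted p = 0.00317). These 5 falls kept their call in every single-library setting, and their lack of overlap was set by the rule that picked them. Of the other largest changes, Pdzk1ip1 (log2 -2.05), Gm8893 (-1.94, a predicted gene model whose reads may be shared with similar loci) and Nyap1 (-1.73) also kept their call in all of these. Sytl5 (-2.50), Slc34a2 (-2.10), Mup15 (1.91), A930033H14Rik (2.09), Mroh7 (1.57) and B4galnt3 (1.46) lost it in at least 1 setting, at adjusted p up to 0.152 for Slc34a2. Leaving out chow replicates 3 and 4 together gave adjusted p of 0.0743 for Enho, 0.0786 for Pdzk1ip1, 0.0522 for Nyap1, 0.132 for Sytl5, 0.0765 for Mup15, 0.143 for A930033H14Rik, 0.108 for Mroh7 and 0.221 for B4galnt3. Leaving out chow replicates 1 and 2 together gave 0.126 for Slc34a2, 0.0627 for Mup15 and 0.073 for A930033H14Rik.

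No member was called in the lists of p53 targets (22 tested), interferon-stimulated genes (28), unfolded protein response (20), integrated stress response (21), cytosolic heat shock (17), cell cycle (26) or SR splicing regulators (29, Arglu1 among them). Of the splicing regulators 25 had negative values, with a median of -0.18. Clk3, a kinase of SR proteins, had the lowest p (log2 -0.44 ± 0.11, adjusted p = 0.0515). Without chow replicates 1 and 2 together 13 of the 29 were called lower, and without chow replicates 3 and 4 together none was. The 13 mitochondrially encoded genes summed to 55490, 47740, 76370 and 86550 CPM in chow replicates 1 to 4, and to 49890 to 59930 CPM on HFD. Chow replicates 3 and 4 were thus the highest. All 13 fold changes were negative (median -0.14) and 1 gene fell, where 1.07% of all genes tested fell. This was mt-Co2, a subunit of cytochrome oxidase, from 5303, 4738, 7476 and 7362 CPM to 3424, 4135, 4554 and 2941 CPM (log2 -0.72 ± 0.18, adjusted p = 0.0408). Its 2 highest libraries were chow replicates 3 and 4, and the change without them was -0.42 (adjusted p = 0.358). The call was also lost in 6 single-library settings (adjusted p up to 0.142, without chow replicate 3). Of 33 nuclear genes of oxidative phosphorylation 1 rose, where 1.14% of all genes tested rose. This was the complex I subunit gene Ndufs1 (log2 0.36 ± 0.08, adjusted p = 0.0241). The call of Ndufs1 was lost in 4 single-library settings (adjusted p up to 0.103, without HFD replicate 2) and without chow replicates 3 and 4 together (0.171).

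WT liver, which shares no library with this comparison, gave 294 calls for the same diets (2.04%; 0.97% higher and 1.07% lower). The genotypes shared 84 called genes, 26.25% of the LKO calls and 28.57% of the WT calls, and all 84 moved in the same direction. Of the 320 genes called in LKO, 294 had the same sign in WT (91.88%), against 57.63% of all genes tested. The median absolute log2 change of the LKO calls was 0.67 in LKO and 0.35 in WT. These genes were selected on the LKO test, so the medians are no comparison of size.

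**Figure D4:**
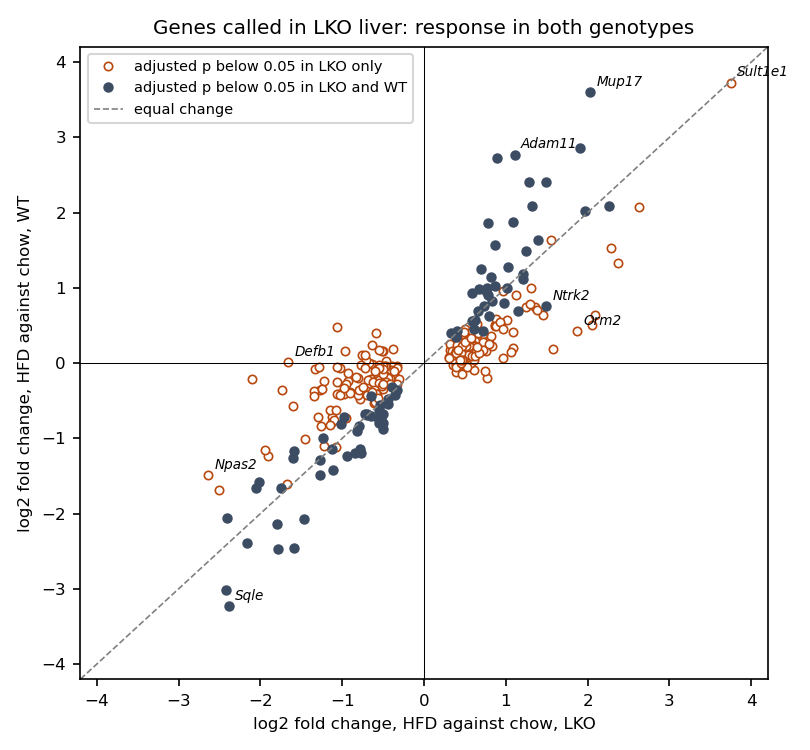
Log2 fold change of HFD against chow in LKO (x axis) and WT (y axis) for the 320 genes called in LKO, filled for the 84 also called in WT, with a dashed line of equal change. Most points (294) share their sign in both genotypes, with Mup17 and Adam11 above the line and Orm2 and Ntrk2 below it.

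The difference between the 2 responses passed the test for 3 genes (0.0208%), each at adjusted p = 0.0413, while 1263 genes (8.75%) had an unadjusted interaction p below 0.05. The LKO response lay above the WT response for 1 of them (0.00693%) and below it for 2 (0.0139%). Adam11, a catalytically inactive ADAM family gene, rose in LKO from 110.8, 53.1, 95.3 and 80.9 CPM to 187.8, 182.1, 174.8 and 188.9 CPM (log2 1.11 ± 0.18, adjusted p = 0.00446), and in WT by 2.77, a difference of -1.66 ± 0.26. In WT it started lower, at 13.6 to 21.7 CPM on chow. Lepr, the leptin receptor, stood in LKO at 21.9, 16.2, 11.4 and 14.2 CPM on chow and at 22.1, 20.9, 16.3 and 21.4 CPM on HFD (log2 0.34 ± 0.19, adjusted p = 0.375), with overlap, and rose in WT by 2.10, a difference of -1.76 ± 0.28. Ppp4r4, a regulatory subunit of protein phosphatase 4, stood at 22.8, 20.4, 26.8 and 23.7 CPM on chow and 25.8, 25.9, 22.6 and 25.3 CPM on HFD in LKO (log2 0.09 ± 0.09, adjusted p = 0.652). In WT it fell by 0.72, a difference of 0.81 ± 0.13. None of the 3 held in every setting: leaving out single libraries gave between 0 and 9 interaction calls.

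**Figure D5:**
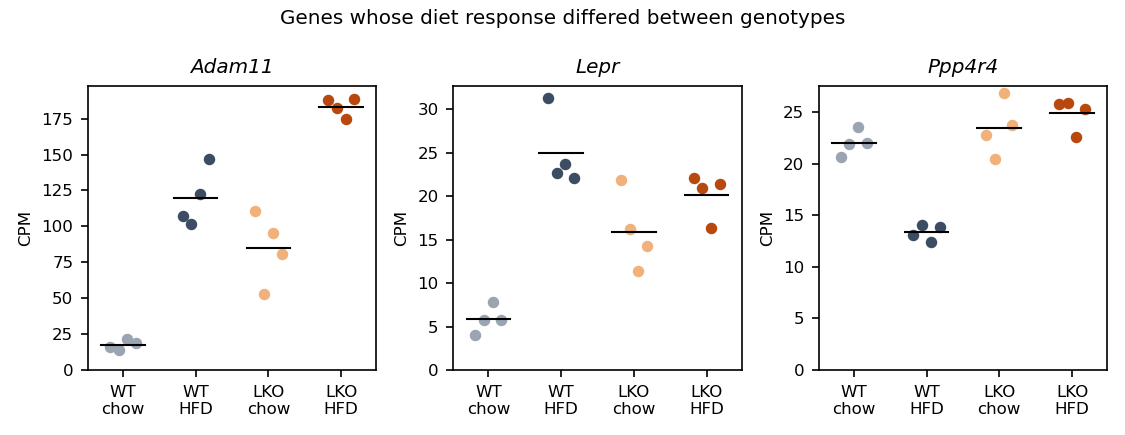
CPM (y axis, from 0) of Adam11, Lepr and Ppp4r4 in each library of the 4 groups, with a bar at the group mean. Adam11 and Lepr start lower on chow in WT than in LKO, and Ppp4r4 is lower only in the WT HFD libraries, at 12.4 to 14.1 CPM.

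The next lowest interaction p included 2 genes that were called in LKO and not in WT. Defb1, a beta-defensin gene, fell in LKO from 9.52, 7.71, 7.65 and 7.25 CPM to 1.79, 2.43, 3.71 and 2.18 CPM (3.16-fold, log2 -1.66 ± 0.24, adjusted p = 0.0018), against 0.01 in WT. The difference of -1.67 ± 0.35 had an adjusted p of 0.232. Atp5g2, a subunit of the ATP synthase ring, fell in LKO by 0.59 ± 0.12 (log2, adjusted p = 0.0194) and was at 0.40 in WT (adjusted p = 0.114), with an adjusted interaction p of 0.0841. Gramd1b, which moves cholesterol from the plasma membrane to the endoplasmic reticulum, rose in both genotypes, by 0.78 in LKO and 1.86 in WT (adjusted p = 0.00991 and 6.61e-06), and the difference of -1.08 ± 0.22 had an adjusted p of 0.232.

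Genes outside the counts table, each at 0 in at least 1 of the 16 libraries, gave 5 calls among 328 tested in the wider table (3 higher and 2 lower). Prom2, a prominin family membrane protein gene, fell from 48, 29, 47 and 30 counts on chow to 3, 3, 7 and 5 counts on HFD (log2 -3.13 ± 0.46, adjusted p = 0.00302). Dppa5a, known from pluripotent cells, rose from between 1 and 4 counts to between 10 and 22 counts (log2 2.49 ± 0.49, adjusted p = 0.0133). Both genes were picked among those without overlap between diets.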

How the data were processed

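Liver RNA of 16 libraries (4 groups of 4) was sequenced after poly(A) selection as paired reads of 150 bases, per the labels' protocols. The submitters' processing notes name mm10, Bowtie2 and DESeq2, without versions, and the counter is not given in the sources used here. The authors deposited estimated counts per gene (51.1% whole at a tolerance of 1e-06), which were rounded for the count models. The counts table holds 15119 genes, those above 0 in all 16 libraries of a wider table of 35712 genes, also counts. The chow columns of the wider table lie 1 row off: as deposited, 1 gene matches the counts table on chow, and after moving them by 1 row, 1 value differs. The wider table served only for genes outside the counts table, for a repeat of the test, and for the muscle and fat genes, with its chow columns moved.

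Genes were filtered with filterByExpr (14434 kept), scaled by TMM and tested with edgeR 4.0.16 (R 4.3.3, robust quasi-likelihood, 1 mean per group over all 16 libraries) for the diet contrast in LKO, in WT, and their difference (interaction), with Benjamini-Hochberg adjustment over all genes tested. Standard errors are the log2 fold change divided by the square root of F. DESeq2 1.42.0 and limma 3.58.1 (voom with quality weights), other scalings and filters, a fit of the compared groups alone, a replicate block, a fold minimum and each library left out were alternatives. On simulated counts for the LKO contrast (14434 genes) 35.8% of 1.5-fold, 76.1% of 2-fold and 98.5% of 4-fold changes were recovered, with 5 false calls. The genes were simulated independently, with changes placed only in genes above a minimum mean count. The simulation held neither the split among LKO chow libraries nor the muscle counts, so these rates check the procedure and do not give the error in these data. Same-numbered libraries did not deviate together (1 of 4 correlations over 0.1), so they were not treated as pairs. No 2 LKO replicates of a group agreed within counting noise (WT replicates were not compared).

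Genes were named if they were Arglu1, among the 15 largest called rises or falls without overlap and with a mean of at least 1 CPM in 1 LKO group, the 10 of lowest p, the 10 of lowest interaction p, or called members (and up to 4 others of lowest p) of 47 gene lists (844 of 892 genes tested), or among the 10 largest changes outside the counts table. The genes outside the counts table were picked among those without overlap and with at least 10 counts in every library of 1 LKO group. The comparison, lists and rules were chosen with earlier results of these data known, and the muscle and fat genes after seeing the data. Gene lists are described by counts and medians, with no test. Their counts are to be read against the 2.22% called over all genes tested, and 1 call in a list is no result about the list.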

Additional observations from a re-analysis of the deposited data

Results flagged for a closer look

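Single libraries stood apart from the other 3 of their group for 9 of 154 sets of 4 values checked, where chance flags about 1 in 20. LKO HFD replicate 3 was the highest HFD library for Sqle (31.1 CPM against 14.7 to 15.5), Hmgcs1 (202 CPM against 105 to 118), Cyp51 (71.0 CPM against 38.2 to 40.3), Aldh1a1 (2150 CPM against 1820 to 1860) and Gm8893 (10.6 CPM against 5.24 to 5.78). LKO HFD replicate 2, the library with skeletal muscle counts, stood apart for Ldb3 (10.3 CPM against 1.94 to 2.39). On chow, Sult1e1 was high in LKO replicate 2 (8.21 CPM against 0.319 to 1.10), Adgrf1 in replicate 1 (15.6 CPM against 7.83 to 8.44) and A930033H14Rik in replicate 4 (1.68 CPM against 0.887 to 0.969).

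The diet response differed between genotypes by the interaction test for Adam11 (LKO minus WT, log2 -1.66), Lepr (-1.76) and Ppp4r4 (0.81).

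Genes outside the counts table were picked here for having every LKO HFD library above every LKO chow library. They also had at least 10 counts in every library of 1 LKO group, which for these rises was the HFD group. Both properties were thus set by the choice. The adipocyte-known gene Cfd had a lowest HFD count of 59 against 1 to 46 on chow; Plin1, another adipocyte gene, was highest in LKO chow replicate 3 at 63.9 counts. The lowest HFD counts of the others were 34 for Sprr1a (chow 4 to 14), 11 for Pwwp4c (0 to 7), 10 for Dppa5a (1 to 4), 13 for Sdcbp2 (2 to 9), 16 for Chil3 (1 to 9), 18 for Mup-ps7 (0 to 13), 20 for Lrtm2 (9 to 18) and 13 for Rnase13 (1 to 8). Of these 9 genes Dppa5a and Sdcbp2 passed the edgeR test (adjusted p = 0.0133 and 0.0373).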

How the results depend on the processing

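The number of genes called moved with the processing, and the cause was not tested. DESeq2 called 783 genes in LKO (430 higher, 353 lower; 1134 without an adjusted p), 702 in WT and 53 for the interaction, and limma voom with quality weights 2021 (1150 and 871), 470 and 16. A fit of the compared groups alone, with fewer libraries, gave 188 in LKO (96 and 92), and a fold minimum of 1.5 left 2 (1 and 1). A mean count of at least 50 gave 0 interaction calls (1096 at unadjusted p below 0.05). The replicate block gave 231 calls in LKO and 0 for the interaction (1141 at unadjusted p below 0.05); 9 of the 71 called named genes lost their call with the block, though the numbers are not taken as pairs. Leaving out single libraries gave 111 to 656 calls in LKO (52 to 350 higher, 58 to 306 lower), 155 to 359 calls in WT and 0 to 9 for the interaction. Without LKO chow replicates 1 and 2 together, chosen after seeing the data, 2768 genes were called in LKO (1692 and 1076), 618 in WT and 1264 for the interaction. Without replicates 3 and 4 the counts were 179 (71 higher), 502 and 2. Other scalings, no filter and the wider table kept the LKO count between 313 and 333. Lists without a call in the main test could hold calls in other settings, as given above for the oxidation and splicing genes. No named called gene reversed in any of 28 settings. Precision is limited by 4 libraries a group; counting intervals would cover counting error only.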
